A study of Mus musculus with 2 samples.

Results

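The genes of the cytosolic ribosomal proteins were taken by name from the GENCODE annotation of mm9 as the protein-coding genes with a symbol that starts with Rpl or Rps and a digit, together with Rplp0, Rplp1, Rplp2 and Rpsa. Rps6k kinase genes, names ending in l1 or -ps and single-exon copies were left out. This gave 81 members among 22359 protein-coding genes, of which 32 encode proteins of the small subunit and 48 proteins of the large subunit. The remaining member, Rps19bp1, has the name but encodes a protein that binds Rps19 and is no part of the ribosome. Chromatin of wild type E14 mouse embryonic stem cells (mESCs, genotype wt, background 129P2/OlaHsd, passage P26 for both samples) was precipitated with an antibody against Msl1 or an antibody against Nsl1. The study describes these cells as male. Each antibody had 1 library, and the libraries differed in their kits (NEXTFlex for Msl1, NEBNext for Nsl1) and read lengths. Both samples are cells of 1 line without treatment, so the comparison is between 2 antibodies and 2 libraries and antibody, kit and read length cannot be told apart. Transcription was not measured in these files.

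Cytosolic ribosomes consist of a small subunit that reads the message and a large subunit that joins amino acids. Their protein genes are short, have many introns, are transcribed at high rates in growing cells and often host small nucleolar RNAs (snoRNAs) in their introns. Their transcripts usually start within a tract of pyrimidines. Msl1 is the scaffold of the MSL complex and Nsl1 (Kansl1) that of the NSL complex, and both complexes carry the histone acetyltransferase Mof. In the annotation, the median member was 3136 bases long from start to end of its main transcript, against 14245 bases over all protein-coding genes, and its first exon had a median of 76 bases against 214. In 30 members an annotated snoRNA gene lay within the transcript, and 11 members had a protein-coding neighbour on the other strand that started within 1 kb. The shares of all protein-coding genes with these features are not given, so neither count can be called high or low.

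For Msl1, 23888517 reads with a length of 50 bases were deposited, and for Nsl1 26084098 with a length of 36 bases. Duplicates and mitochondrial reads were left out, which kept 19483142 Msl1 and 24883001 Nsl1 reads. Each read was moved to the middle of its fragment, with fragment lengths of 215 bases (Msl1) and 135 bases (Nsl1) estimated from the shift between strands. The enrichment of a window is given as its reads per kb divided by the local level, which is the read density 5 to 50 kb away from the transcription start site (TSS) in either direction and in the same library. Brackets after a value of 1 gene, a share or a sum hold 95% intervals, and those after a median over genes hold the lowest and the highest gene. The intervals are Poisson for ratios to the local level, with the local level taken as known. They are binomial for ratios between read counts. Both kinds are exact for single counts and describe counting error alone. The intervals of shares are binomial over the genes of a list, taken as independent. They hold neither the counting error of the reads nor the spread between samples. Because each antibody had 1 library, the spread between samples is unknown and p-values are not given. The pairs Rps2 and Rpl3l, and Rps29 and Rpl36al, for example, are neighbours and share part of their local level.

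Sequences around the TSS were read from NCBIM37 (mm9), from 80 bases before the start to 20 bases from the start on, on the strand of the gene. Shown are 3 members with high Nsl1 reads and a marked pyrimidine tract or a divergent partner (Rps18, Rpl18, Rps9), the member with the highest Msl1 ratio at the TSS (Rps12), the member with the highest Nsl1 ratio (Rpl9) and the muscle paralog Rpl3l, which was lowest in Nsl1. Capitals mark runs of 8 or more pyrimidines near the start and matches to the words searched, on either strand. The words searched are given with their counts after the sequences.
Rps18 (chr17:34092591-34092690, minus strand): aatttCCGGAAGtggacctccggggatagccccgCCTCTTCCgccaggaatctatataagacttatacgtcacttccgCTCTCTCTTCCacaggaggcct
Rpl18 (chr7:52973361-52973460, plus strand): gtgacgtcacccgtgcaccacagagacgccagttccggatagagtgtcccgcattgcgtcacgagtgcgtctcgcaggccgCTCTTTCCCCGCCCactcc
Rps9 (chr7:3655563-3655662, plus strand): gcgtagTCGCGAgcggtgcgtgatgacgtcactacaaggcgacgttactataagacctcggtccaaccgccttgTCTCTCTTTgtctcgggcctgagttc
Rps12 (chr10:23506996-23507095, minus strand): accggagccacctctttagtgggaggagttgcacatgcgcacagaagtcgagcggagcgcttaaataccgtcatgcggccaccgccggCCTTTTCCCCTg
Rpl9 (chr5:65782651-65782750, minus strand): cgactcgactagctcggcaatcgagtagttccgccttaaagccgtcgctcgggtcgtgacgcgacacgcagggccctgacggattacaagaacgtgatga
Rpl3l (chr17:24864691-24864790, plus strand): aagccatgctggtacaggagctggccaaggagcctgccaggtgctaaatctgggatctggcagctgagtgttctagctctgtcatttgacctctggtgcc

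In Rps18 a run of 11 pyrimidines covered the start, and in Rps9 a run of 9 did. In Rpl18 the run began at the base after the start, and in Rps12 it lay further inside the transcript. Rpl9 and Rpl3l showed neither a run nor a word in this stretch. Both have a run within 50 bases of the TSS that is not wholly in the stretch shown, of 10 bases in Rpl9 and 9 in Rpl3l. A run of 8 or more pyrimidines within 50 bases of the TSS was present in 61 of 81 members (75.3%), against 35.4% of all protein-coding TSSs. Fewer members had pyrimidines across the annotated start itself, where a run of 5 or more was found in 18 of 81 (22.2%, against 8.74%). The median longest run was 10 bases in the members and 6 bases over all genes. From 250 bases before to 50 bases after the TSS, the word CCGGAAG, which is recognized by factors of the ETS family, was found on either strand in 27 members (33.3%), against 11.2% of all promoters. The palindrome TCGCGA was found in 15 members (18.5%), against 3.39% of all promoters. The word AAGATGG of the factor YY1 was present in 11 members (13.6%, against 6.93%), and the word GGGCGG of SP1 in 45 (55.6%, against 45.1%). For the TATA box the exact word TATAAA was searched, and it was present in 9 members (11.1%, against 13.4%). Its place in this window was not considered, and variants such as the tatataag of Rps18 were not counted. A match of letters is no measure of binding, and SP1 words can overlap pyrimidine runs, as in Rpl18. The median G+C content was 56.7% in the members and 56.0% over all genes, and the median number of CpG dinucleotides was 21 against 12. It was 19 in mitochondrial ribosomal protein genes and 19.5 in proteasome genes, which are introduced further on. The Nsl1 ratio had a median of 3.84 in the members with the ETS word and 3.49 in those without it, and it was 3.58 with and without TCGCGA. For Msl1 these medians were 3.83 and 3.42 for the ETS word, and 3.84 and 3.47 for TCGCGA. For Nsl1 the medians with and without the YY1 word were 2.66 and 3.70, over 11 members with it. With and without TATAAA they were 4.31 and 3.51, over 9 members with it. For Msl1 they were 3.55 and 3.50 for the YY1 word and 3.71 and 3.50 for TATAAA. For the SP1 word they were 3.49 and 3.82 in Nsl1 and 3.71 and 3.37 in Msl1. For the run of 8 or more pyrimidines they were 3.53 and 3.79 in Nsl1 and 3.69 and 3.42 in Msl1. For 5 or more pyrimidines over the start they were 3.58 and 3.58 in Nsl1 and 3.90 and 3.40 in Msl1. No test of these differences was made.

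Around the start, Nsl1 reads were centred on the TSS, and Msl1 reads lay downstream of it and went on into the genes. Within 500 bases of the TSS, the Msl1 ratio had a median of 3.5 (lowest 1.04, highest 9.58) and the Nsl1 ratio a median of 3.58 (0.647 to 13.7). From 500 to 2000 bases downstream, the Msl1 ratio had a median of 5.10 (1.11 to 9.49), whereas the Nsl1 median was 1.03 (0.518 to 2.37). Over all protein-coding genes these 4 medians were 1.86 and 1.71 at the TSS and 1.5 and 1.15 downstream. The medians of both libraries were close in the window of 500 bases and separated downstream. They also separated nearer to the TSS, since within 250 bases the median was 2.54 for Msl1, with 30 members at 3 times the local level or more (18.8% of all TSSs), and 4.81 for Nsl1, with 69 members (29.4% of all TSSs).

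**Figure D1:**
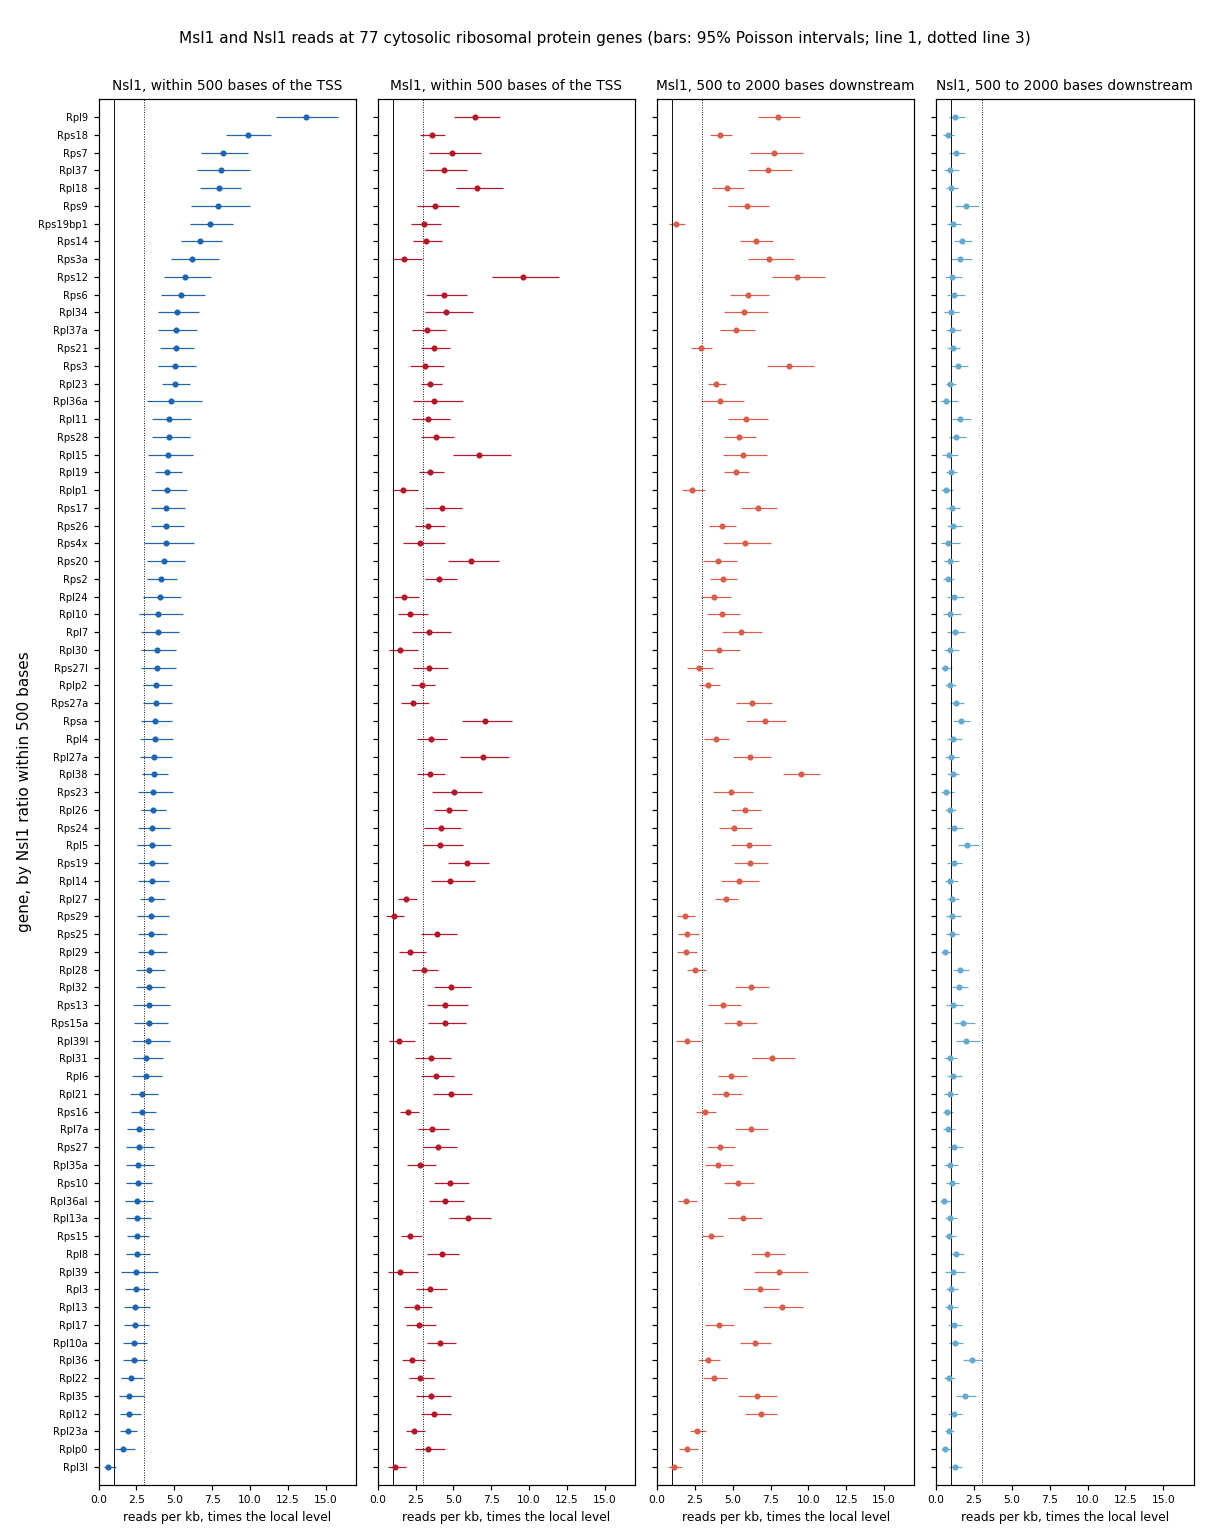
Reads per kb in each of 77 of the 81 genes as a multiple of the local level, for Nsl1 and Msl1 within 500 bases of the TSS and from 500 to 2000 bases downstream, with 95% Poisson intervals. Genes are ordered by the Nsl1 ratio within 500 bases, from Rpl3l (0.647) to Rpl9 (13.7), and the downstream Nsl1 values stay at or under 2.37 while most downstream Msl1 values lie over 3.

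At 3 times the local level or more within 500 bases of the TSS, Msl1 marked 57 of 81 members (70.4%, 59.2 to 80), where 23.9% of all protein-coding TSSs reached this level. Nsl1 marked 56 members (69.1%, 57.9 to 78.9), against 24.2% of all TSSs. In 43 members (53.1%) both libraries reached it, against 12.0% of all TSSs. A further 14 members (17.3%, against 11.9% of all TSSs) reached it in Msl1 alone, among them Rpl3, Rpl7a, Rpl8, Rpl10a, Rpl12, Rpl13a, Rpl21, Rpl35, Rpl36al, Rplp0, Rps10 and Rps27. In Nsl1 alone it was reached by 13 members (16.0%, against 12.2%), among them Rpl10, Rpl24, Rpl27, Rpl29, Rpl30, Rpl39l, Rplp1, Rplp2, Rps3a, Rps4x, Rps27a and Rps29. Both shares were close to those over all TSSs. The 11 members under it in both libraries (13.6%, against 63.9%) included Rpl3l, Rpl13, Rpl17, Rpl22, Rpl23a, Rpl35a, Rpl36, Rpl39, Rps15 and Rps16. The counting error was wide for single members, and the interval lay wholly at 3 or more for 28 members in Msl1 (34.6%, against 8.30% of all TSSs) and 27 in Nsl1 (33.3%, against 14.8%).

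The downstream window set Msl1 apart. There, 67 members (82.7%, 72.7 to 90.2) held Msl1 at 3 times the local level or more, against 11.8% of all protein-coding TSSs, and for 59 of the 81 (72.8%, against 4.56%) the interval lay wholly at this level. In Nsl1 none of the 81 members reached it (0%, up to 4.45), where 0.915% of all TSSs did. Of all TSSs, the 99th percentile of the Msl1 downstream ratio was reached by 29 members and the 95th percentile by 58. Msl1 was denser downstream than within 500 bases in 62 members (76.5%), which was the case at 36.3% of all TSSs, and the downstream interval lay wholly above that of the TSS window in 22 members (27.2%, against 2.73%) and wholly below it in 3 (3.70%, against 10.2%). Nsl1 was denser downstream in 2 members, Rpl36 and Rpl3l, against 25.1% of all TSSs. The transcript of Rpl36 is 849 bases long, so most of its downstream window lies beyond the gene.

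**Figure D2:**
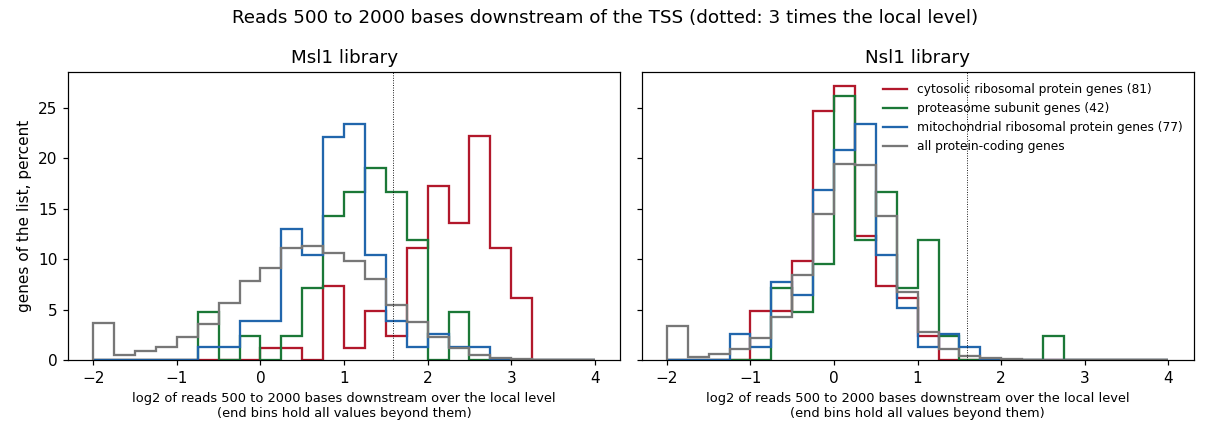
Share of the genes of each list (percent) by the log2 ratio of reads from 500 to 2000 bases downstream to the local level. In the Msl1 library the cytosolic ribosomal protein genes lie to the right of all other lists, with a median ratio of 5.10 against 1.93 for mitochondrial ribosomal protein genes, 2.43 for proteasome subunit genes and 1.5 for all genes, and in the Nsl1 library all 4 lists lie around the local level.

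Nuclear genes of 2 other large assemblies were set beside the members. Mrpl and Mrps genes encode the proteins of the mitochondrial ribosome, and Psma, Psmb, Psmc and Psmd genes encode the subunits of the proteasome. The 77 mitochondrial ribosomal protein genes had a median of 3.10 for Msl1 and 5.89 for Nsl1 at the TSS, and the 42 proteasome genes had 2.96 and 4.88. Nsl1 at 3 times the local level was found at 68 of the 77 mitochondrial ribosomal protein genes (88.3%, 79.0 to 94.5) and at 31 of the 42 proteasome genes (73.8%, 58.0 to 86.1). Downstream, Msl1 reached 3 times the local level at 6 of 77 (7.79%, 2.91 to 16.2) and 14 of 42 genes (33.3%, 19.6 to 49.5). The cytosolic ribosomal protein genes thus had the higher downstream Msl1 reads, and the mitochondrial ribosomal protein genes the higher Nsl1 reads at the start. These lists were compared within 1 library each and no test was made.

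The summed profiles showed where the reads lay. Over the 81 members, the Msl1 profile was low across the start itself. It held 57 reads in the bin from -100 to -50 bases (0.995 times the upstream end of the profile) and 62 reads in the bin from 0 to 50 bases (1.08 times). It rose to 370 reads from 200 to 250 bases downstream (6.46 times) and to its highest bin from 550 to 600 bases with 406 reads (7.09 times, 6.22 to 8.06). In all, 5 bins between 200 and 650 bases downstream held as many reads as the highest bin within its counting error, so the top was broad and its exact place was not resolved. Bins above the middle between the lowest level and the top reached from 150 to 1300 bases, a width of 1150 bases. For protein-coding genes as a whole, the top bin of Msl1 lay at 200 to 250 bases (3.15 times) and the width above the middle was 700 bases, and this width was 450 bases for the mitochondrial ribosomal protein genes.

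Nsl1 was highest where Msl1 was low. Its highest bin over the members lay from -50 to 0 bases with 483 reads (8.19 times the upstream end, 7.24 to 9.25), and no other bin came within its counting error. It was above its middle from -200 to 150 bases. The mitochondrial ribosomal protein genes had 888 reads in their highest bin, from 0 to 50 bases (16.4 times, 14.8 to 18.3). Members of the small and the large subunit did not differ in the place of these bins by more than 50 bases.

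**Figure D3:**
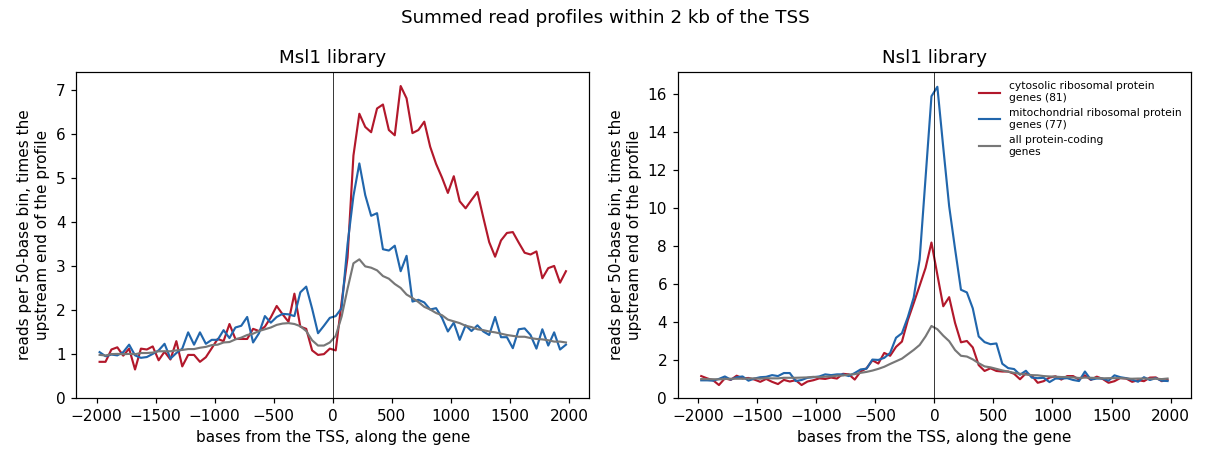
Reads per 50-base bin from 2 kb before to 2 kb after the TSS, summed over each list and divided by the upstream end of the profile. The Msl1 profile of the 81 genes stays near 1 at the start, is broad with its highest bin at 550 to 600 bases (7.09 times) and is still at 2.88 times at the downstream end, and the Nsl1 profile is a narrow peak with its highest bin just before the start (8.19 times).

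Summed over the members, Msl1 held 3758 reads within 500 bases and 7530 reads from 500 to 2000 bases downstream, a ratio of densities of 1.34 (1.29 to 1.39). The same ratio was 0.617 (0.586 to 0.649) for mitochondrial ribosomal protein genes, 0.849 (0.794 to 0.908) for proteasome genes and 0.819 (0.816 to 0.822) for all genes. Nsl1 held 4485 and 1869 reads in these windows, a ratio of 0.278 (0.263 to 0.294), against 0.472 over all genes. Against the window of the same size upstream, the downstream window held 3.81 times the Msl1 reads (3.62 to 4.0) and 1.02 times the Nsl1 reads (0.952 to 1.08). Over all genes these values were 1.44 and 1.03, so the Msl1 reads at the members lay largely on the side of the gene.

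Msl1 stayed over the local level to the ends of the members and past them. In the 75 members of at least 1.5 kb past the start, the transcript from 500 bases on was divided into 5 parts of equal length. The Msl1 ratio was 6.19 (6.0 to 6.39) in the first part, then 4.26, 3.05 and 2.52, and it was 1.89 (1.78 to 2.0) in the last part. In the kb after the annotated end it was 1.85 (1.77 to 1.94), and 1.54 (1.47 to 1.62) in the kb after that. Each part from the first to the fifth was lower than the one before it, with intervals apart. Protein-coding genes of 2 to 6 kb had 2.01, 1.58, 1.38, 1.32 and 1.21 in the same parts. Nsl1 was at 1.25 (1.17 to 1.34) in the first part and between 0.921 and 1.02 in the others. It was 1.41 (1.34 to 1.48) in the kb after the end and 1.28 (1.21 to 1.35) in the kb after that.

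**Figure D4:**
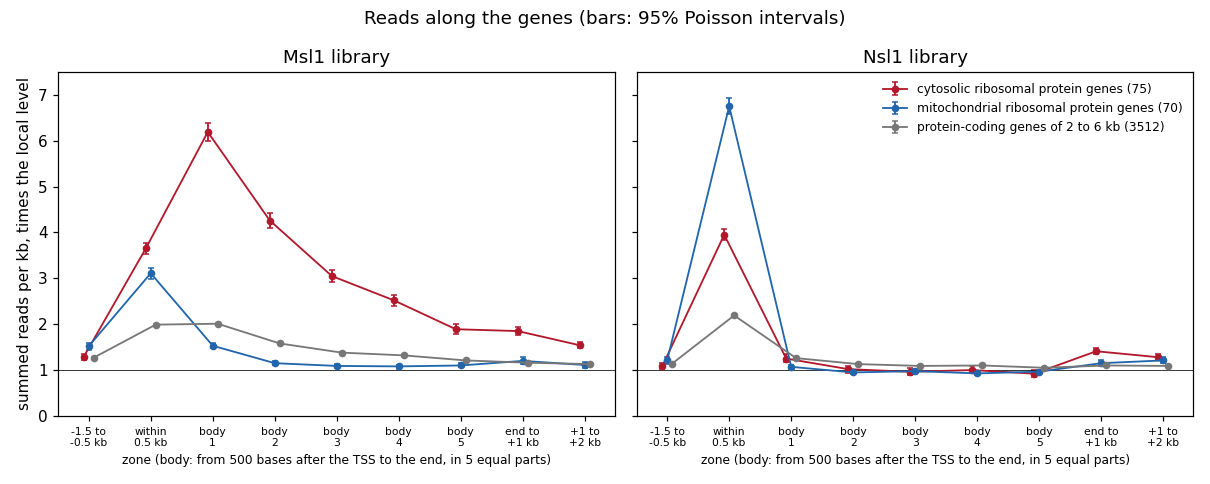
Summed reads per kb as a multiple of the local level in 9 zones along the genes, with 95% Poisson intervals. For cytosolic ribosomal protein genes the Msl1 ratio falls from 6.19 to 1.89 over the 5 parts of the body and is 1.85 in the kb after the end, while the Nsl1 ratio is 3.95 within 500 bases and close to 1 in the body.

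Ribosomal protein genes have many processed copies in the genome, and reads from their exons often match such a copy. Beyond 500 bases from the TSS, Msl1 reads per base in exons were 0.786 times those in introns (0.756 to 0.817) and Nsl1 reads 0.711 times (0.663 to 0.762), against 1.46 and 1.30 over all genes. Words of 50 bases that occur once in the genome covered 80% of the exon bases and 98.1% of the intron bases of the members, and words of 36 bases covered 74.8% and 96.2%. Divided by these shares, exons and introns came closer, with 0.964 (Msl1) and 0.915 (Nsl1). With exons of protein-coding transcripts only and no such correction, they lay further apart, with 0.497 and 0.566, so the ratio depended on which exons were counted. The other ratios to the local level given here are without this correction. With it, the Msl1 downstream ratio had a median of 5.33 and the Nsl1 ratio one of 1.09.

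Among the small subunit genes, Rps12 was highest in Msl1 and Rps18, Rps7 and Rps9 were highest in Nsl1. Rps12 held 78 Msl1 reads within 500 bases, 9.58 times the local level (7.57 to 12.0), and 113 downstream, 9.26 times (7.63 to 11.1). Its Nsl1 ratio was 5.73 (4.33 to 7.44) at the TSS and 1.02 downstream. Rps12 was thus high in both libraries at its start, and only in Msl1 beyond it. Rps20 had an Msl1 ratio of 6.16 (4.66 to 8.0) with 56 reads. Rpsa, which is also known as the laminin receptor, starts at base 120036884 of chromosome 9 (plus strand) and held 77 Msl1 reads (7.08 times, 5.59 to 8.85) and 54 Nsl1 reads (3.73 times, 2.80 to 4.86).

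Rps18 shares its start with the divergent gene Vps52, 217 bases away. It held 172 Nsl1 reads (9.84 times, 8.42 to 11.4) and 75 Msl1 reads (3.57 times, 2.81 to 4.47) within 500 bases. Rps7 held 110 Nsl1 reads (8.21 times, 6.75 to 9.89) and 34 Msl1 reads (4.88 times), and Msl1 rose there to 7.76 times (6.17 to 9.65) downstream. Rps9, whose start is shown above, held 68 Nsl1 reads (7.90 times, 6.13 to 10.0) and 33 Msl1 reads (3.81 times, 2.62 to 5.35). Downstream, Rps9 had an Msl1 ratio of 5.93 (4.68 to 7.41) and an Nsl1 ratio of 1.94 (1.25 to 2.86). Rps14 held 97 Nsl1 reads (6.67 times, 5.41 to 8.14) and 47 Msl1 reads (3.19 times). These 4 genes were named for their high Nsl1 ratios at the start. With mappability taken into account, Rps9 came to 2.20 for Msl1 and 4.42 for Nsl1 at the TSS, which ends its Msl1 call at 3 times the local level.

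Rps29 was lowest in Msl1, with 14 reads (1.04 times, 0.569 to 1.75), and held 46 Nsl1 reads (3.48 times, 2.55 to 4.65). Of the positions around its start, 66.0% could give a unique Msl1 read and 62.1% a unique Nsl1 read. Within 2 kb of the TSS, Msl1 reads per Nsl1 read of Rps29, each per read of its library, came to 1.05 (0.752 to 1.46).

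Among the large subunit genes, Rpl9 was highest in Nsl1 and Rpl27a, Rpl15 and Rpl18 were highest in Msl1. Rpl9 starts 66 bases from the divergent gene Lias, which encodes lipoic acid synthetase. It held 179 Nsl1 reads within 500 bases, 13.7 times the local level (11.7 to 15.8), and 74 Msl1 reads, 6.45 times (5.06 to 8.09). Msl1 was at 7.97 times (6.69 to 9.42) downstream of Rpl9, and Nsl1 at 1.27. No other member came within the Nsl1 interval of Rpl9. Rpl18, which starts 69 bases from Sphk2, held 135 Nsl1 reads (7.95 times, 6.67 to 9.41) and 75 Msl1 reads (6.57 times, 5.17 to 8.24). Rpl37 held 87 Nsl1 reads (8.10 times, 6.49 to 9.99) and 42 Msl1 reads (4.37 times), without a divergent neighbour.

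Rpl27a held 75 Msl1 reads (6.94 times, 5.46 to 8.70) and 49 Nsl1 reads (3.69 times). Rpl15 (chromosome 14, minus strand, TSS at 19103500), divergent to Nkiras1, held 51 Msl1 reads (6.67 times, 4.97 to 8.78) and 41 Nsl1 reads (4.58 times). Rpl13a, which hosts 4 annotated snoRNA genes, held 74 Msl1 reads (5.97 times, 4.69 to 7.5) and 41 Nsl1 reads (2.56 times, 1.84 to 3.48). The intervals of these 3 Msl1 ratios overlapped, so their order is not resolved. At the most upstream annotated TSS, the Msl1 ratio was 1.1 for Rpl13a, 1.86 for Rpl18 and 3.55 for Rpl15. The Nsl1 ratio there was 1.00 for Rpl13a and 1.94 for Rpl18. The high values of Rpl13a and Rpl18 thus depend on which start is used. For both genes, the TSS used here has a start of the RefSeq annotation within 100 bases. The highest downstream Msl1 ratio was that of Rpl38, with 229 reads (9.49 times, 8.30 to 10.8), which was named after its value was seen.

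Low Nsl1 ratios at the TSS with Msl1 over 3 times the local level downstream were found for Rpl12, Rpl35 and Rpl7a, and Rpl23a was under 3 times the local level in both libraries. Rpl12 (chromosome 2, plus strand, TSS at 32817079) held 33 Nsl1 reads (2.01 times, 1.38 to 2.82) at the TSS and had an Msl1 ratio of 3.74 there and 6.84 (5.84 to 7.95) downstream. Rpl35 held 25 Nsl1 reads (2.04 times, 1.32 to 3.01), with an Msl1 ratio of 3.53 at the TSS and 6.58 (5.38 to 7.95) downstream. Rpl23a held 44 Nsl1 reads (1.91 times, 1.39 to 2.56), and its Msl1 ratios were 2.42 and 2.66. Its local level was high, with 26.8 Msl1 reads per kb, and against the genome level it came to 6.23 for Msl1 and 3.30 for Nsl1 at the TSS. Rpl7a held 38 Nsl1 reads (2.66 times, 1.88 to 3.65) and had an Msl1 to Nsl1 read ratio of 3.56 (2.75 to 4.65) within 2 kb. Rpl30 was low in Msl1 at the TSS, with 11 reads (1.47 times, 0.736 to 2.64), and had 46 reads downstream (4.11 times, 3.01 to 5.49). Its annotated first exon is 456 bases long, and that of Rpl35 541 bases, against the median of 76 bases. Whether the start in use in these cells lies further downstream was not tested.

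The stalk of the large subunit, which binds elongation factors, is built from Rplp0, Rplp1 and Rplp2. Rplp0 (chromosome 5, plus strand, TSS at 116009476) held 26 Nsl1 reads (1.63 times, 1.06 to 2.39) and 48 Msl1 reads (3.34 times, 2.46 to 4.42) at the TSS, and its Msl1 ratio was 1.99 (1.44 to 2.69) downstream. Rplp1 (chromosome 9, minus strand, TSS at 61762345) held 57 Nsl1 reads (4.52 times, 3.43 to 5.86) and 19 Msl1 reads (1.69 times, 1.02 to 2.64), with a downstream Msl1 ratio of 2.31 (1.64 to 3.16). Rplp2 held 66 Nsl1 reads (3.81 times) and 56 Msl1 reads (2.92 times), with 3.40 (2.76 to 4.15) downstream. The 3 stalk genes were therefore lower in downstream Msl1 than the median member (5.10).

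The members include 4 paralogs with a restricted or separate role, whose values are given one by one. Rpl3l, which replaces Rpl3 in skeletal muscle and heart, held 18 Msl1 reads (1.16 times, 0.685 to 1.83) and 11 Nsl1 reads (0.647 times, 0.323 to 1.16) at the TSS. Its intervals included the local level in both libraries, and its downstream Msl1 ratio was 1.11 (0.728 to 1.63). The Rpl3 gene itself had 2.45 for Nsl1 and 3.44 for Msl1 at the TSS and 6.79 (5.70 to 8.03) for Msl1 downstream. Rpl39l, known from testis, held 29 Nsl1 reads (3.29 times, 2.20 to 4.73) and 12 Msl1 reads (1.42 times, 0.733 to 2.48), with a downstream Msl1 ratio of 1.97. Rps27l, a target of p53, had 3.84 for Nsl1, 3.36 for Msl1 and 2.75 (1.99 to 3.71) for Msl1 downstream. Rpl36al, which starts 91 bases from Mgat2, had 60 Msl1 reads (4.43 times, 3.38 to 5.70) and 33 Nsl1 reads (2.56 times) at the TSS and an Msl1 ratio of 1.92 (1.37 to 2.63) downstream. In downstream Msl1 these 4 lay under the median of the members (5.10) and under 3, as did most protein-coding TSSs (11.8% reached 3). Rps19bp1 had 1.25 (0.802 to 1.86) there, and it held 108 Nsl1 reads (7.34 times, 6.02 to 8.86) and 39 Msl1 reads (3.05 times) at the TSS.

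The downstream window ran past the annotated end in 12 members with transcripts under 2000 bases, so their downstream value comes in part from beyond the gene. Among them were Rpl36 (849 bases), Rplp1 (1255 bases), Rpl36al (1343 bases) and Rps29 (1465 bases). In all, 14 members had a downstream Msl1 ratio under 3, and for 6 of them (7.41% of the members, against 71.5% of all TSSs) Msl1 was under 3 both at the TSS and downstream, namely Rpl23a, Rpl29, Rpl39l, Rpl3l, Rplp1 and Rps29. Rpl22l1, Rpl7l1 and Rpl10l, which the name rule left out, had Msl1 ratios of 4.87 (3.48 to 6.63), 2.27 (1.60 to 3.13) and 1.95 (0.976 to 3.50) at the TSS. Their downstream Msl1 ratios were 3.33 (2.39 to 4.52), 2.66 (2.05 to 3.39) and 2.37 (1.45 to 3.66), all under the median of the members.

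The 4 members on the X chromosome, Rps4x, Rpl10, Rpl36a and Rpl39, had Msl1 ratios of 2.80, 2.15, 3.71 and 1.45 at the TSS and Nsl1 ratios of 4.42, 3.94, 4.76 and 2.47. Downstream, their Msl1 ratios were 5.80 (4.38 to 7.54), 4.31 (3.31 to 5.51), 4.17 (2.93 to 5.74) and 8.05 (6.41 to 9.97). All 4 lay at 3 or more, against 11.8% of all TSSs. The downstream median was 5.05 for them and 5.10 for the 77 autosomal members. At the TSS, the Msl1 median was 2.47 against 3.53. There 1 of 4 against 56 of 77 were at 3 times the local level or more in Msl1, as were 23.9% of all TSSs. The Nsl1 median was 4.18 against 3.53. All ranges overlapped. Rpl39 held 10 Msl1 reads at the TSS and 83 downstream.

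Within 2 kb of the TSS, Msl1 reads per Nsl1 read, each per read of its library, had a median of 2.11 over the members (0.626 to 4.47), and 79 of 81 (97.5%) were over 1, against 73.1% of the protein-coding genes with enough reads. The interval lay over 1 for 72 members (88.9%, against 42.9%). It lay under 1 only for Rps19bp1, which is no part of the ribosome, and the share of all genes under 1 is not given. The median was 0.954 for mitochondrial ribosomal protein genes, 1.14 for proteasome genes and 1.28 for those 14630 protein-coding genes whose reads in both libraries summed to 100 or more. High values were those of Rpl36al (4.26), Rpl12 (3.87) and Rpl7a (3.56), and the lowest those of Rps19bp1 (0.626, 0.468 to 0.831), Rpl39l (0.896), Rps29 (1.05) and Rplp1 (1.07). The value depended on the window, and within 500 bases of the TSS the median of the members was 1.12.

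The members were also divided by features that did not use the reads. A RefSeq start lay at the TSS of 56 members and was missing at 25. With such a start, 45 of 56 members were at 3 times the local level or more in Msl1 and 44 in Nsl1 (medians 3.76 and 3.70). Without it 12 of 25 were so in either library (medians 2.99 and 2.88). Over all TSSs the shares were 23.9% in Msl1 and 24.2% in Nsl1, and they are not given by RefSeq start. The split can thus not be called particular to the members. The downstream Msl1 medians were 5.16 with such a start and 4.55 without it. The members without a RefSeq start include Rps29, Rplp1, Rpl30, Rpl39, Rpl23a, Rpl12 and Rpl35, for which a low ratio at the TSS in at least 1 library is given above. They also include members with high ratios, such as Rps20 (6.16 in Msl1) and Rps14 (6.67 in Nsl1). The low members Rpl3l, Rpl39l and Rplp0 do have a RefSeq start. Whether the annotated starts are the ones in use was not tested. The median Msl1 ratio downstream was 5.19 in the 32 small subunit genes and 5.07 in the 48 large subunit genes. It was 5.10 both in the 30 members with a snoRNA gene and in the 51 without. In the 11 members with a divergent neighbour it was 4.16, against 5.23 in the 70 others, and the Nsl1 median at the TSS was 3.72 against 3.55. The highest Nsl1 ratios, those of Rpl9 and Rps18, belonged to divergent pairs, and reads of 1 window cannot be assigned to either gene. Members at or under the median length had a downstream Msl1 median of 4.34 and longer members 5.44. All ranges overlapped widely, and no test was made. Across the 81 members, the Msl1 and Nsl1 ratios at the TSS had a Spearman correlation of 0.220 and a Pearson correlation of 0.320 on the log2 scale, and the downstream Msl1 ratio and the Nsl1 ratio at the TSS 0.190 and 0.289. These are descriptions over genes that share libraries and depth.

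Other genes of the translation machinery were listed as well. Fau, which encodes a ribosomal protein fused to a ubiquitin-like protein, had an Msl1 ratio of 3.31 and an Nsl1 ratio of 3.72 at the TSS and a downstream Msl1 ratio of 2.88 (2.26 to 3.63). Gnb2l1, which encodes the ribosomal scaffold Rack1, had 3.35 and 4.22 at the TSS and 6.81 (5.85 to 7.89) for Msl1 downstream. Of 12 further genes with pyrimidine tract messages, 9 were at 3 times the local level or more in Msl1 at the TSS (23.9% of all TSSs), 7 in Nsl1 (24.2%) and 8 in Msl1 downstream (11.8%). The elongation factor genes Eef2 and Eef1a1 had downstream Msl1 ratios of 7.09 (6.18 to 8.10) and 6.18 (5.12 to 7.39) and Nsl1 ratios of 1.86 and 2.39 at the TSS. The other elongation factor genes Eef1b2, Eef1d and Eef1g had downstream Msl1 ratios of 4.07 (3.28 to 5.0), 4.05 (3.28 to 4.95) and 3.13 (2.52 to 3.83) and Nsl1 ratios of 8.25, 3.27 and 2.70 at the TSS. The initiation factor genes Eif3e, Eif3f and Eif3h had downstream Msl1 ratios of 2.60, 2.59 and 1.70 and Nsl1 ratios of 6.17, 8.28 and 4.75 at the TSS. Nap1l1, a histone chaperone gene, was under 3 in all 3 measures, with Msl1 ratios of 1.89 and 2.08 and an Nsl1 ratio of 1.43. Downstream Msl1 was thus over the median of the members (5.10) at 2 of the 5 elongation factor genes and at none of these 3 initiation factor genes.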

How the data were processed

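Chromatin immunoprecipitation was sequenced in E14 mESCs with 1 library per antibody. Per the labels and the methods of the study, the authors called bases with CASAVA 1.8.2, aligned reads to mm9 with Bowtie 0.12.7 and kept unique reads. The authors deposited 1 line per read with its position and strand and an alignment score. The deposited score is the same on every line and was not used. No input library was used here.

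Here, reads with the same position and strand were counted once, which kept 81.7% (Msl1) and 95.4% (Nsl1) of the reads outside the mitochondrial genome. The computation used Python 3.11.15, NumPy 2.4.6, SciPy 1.17.1 and pandas 2.3.3, and plots drawn with matplotlib 3.10.9. Genes came from GENCODE vM1, the mouse annotation of mm9 in use here. The TSS was the start used by most protein-coding transcripts, with starts within 100 bases counted together. It was set to the RefSeq start (RefSeq promoter table of GRCm38.p6, matched by sequence on mm9) where that lay within 100 bases, which was so for 56 of 81 members and 13023 of 22359 genes. Counting was tested on simulated data. The number of reads limits the precision, with 10 to 78 Msl1 reads and 11 to 179 Nsl1 reads within 500 bases of each named member.

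The members, lists and tests were chosen with earlier results of these data known. Genes named are the 8 highest and 6 lowest members in each library, the 4 at each end of the Msl1 to Nsl1 ratio, Rps9, the stalk genes, Rpsa, paralogs, X-linked members and a list of other translation genes. Some genes that this rule names are not reported here. Rpl3, Rpl38, Rpl7l1 and members listed for a count were named after their values were seen. The downstream ratio to the local level was added after the data were seen. Alternatives changed the reads kept, window, background, TSS, shift, mappability and members.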

Additional observations from a re-analysis of the deposited data

How the results depend on the processing

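No paired analysis was possible because each antibody had 1 library. For all 15 results over the members, 143 values under other settings were computed, of which 113 stayed within the 95% interval of the value or within 1.5 times the count. For medians this interval came from the ranks of the member genes. It describes the spread between genes, and neither counting error nor the spread between samples. For single genes, 91 of 512 values moved. Rpl39, with an Msl1 ratio of 1.45 from 10 reads, came to 0.290 within 250 bases, where still fewer reads were counted. Rpl12 came from 3.74 to 1.59 in that window. Against the genome level, Rpl36a came from 3.71 to 2.11 in Msl1 and from 4.76 to 2.18 in Nsl1. This gene lies on the X chromosome of male cells, and its local level was 5.92 Msl1 and 6.09 Nsl1 reads per kb. Calls at the TSS changed with the window and the fold. Within 250 bases, Msl1 marked 30 members (median 2.54, with 18.8% of all TSSs called), and the Nsl1 median was 4.81. Within 1000 bases, Nsl1 marked 20 members (median 2.41, with 13.8% of all TSSs called), and the Msl1 median was 3.89. At 5 times the local level, 10 members were left at the TSS in Msl1 (3.81% of all TSSs), 16 in Nsl1 (10.0%) and 41 downstream in Msl1 (1.97%), and at 2 times, 2 were called downstream in Nsl1 (5.12%). Against the genome level the Msl1 median was 4.51 at the TSS and 5.76 downstream, and the Nsl1 median downstream 1.15. The ratio of the downstream window to the TSS window was 1.44 for Msl1 and 0.303 for Nsl1 with the most upstream TSS, 1.43 and 0.302 with mappability, and 1.26 and 0.251 in members with a RefSeq start, the last set chosen after seeing the data. For Msl1 it was 1.53 from 500 to 1500 bases and 1.11 from 1000 to 2000 bases. Without the shift the highest bin was centred at 675 bases for Msl1 and -75 bases for Nsl1, and with 25-base bins at -12.5 bases for Nsl1. The exon to intron ratio was 0.964 for Msl1 and 0.915 for Nsl1 with mappability, and 0.497 and 0.566 with exons of protein-coding transcripts only. The median of Msl1 per Nsl1 was 1.12 within 500 bases and 1.89 within 5 kb. The causes were not tested. Leaving out Rps19bp1, also chosen after seeing the data, or the paralogs moved none of these results past its interval. The downstream results and their alternatives were added after seeing the data.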
